A study of Rattus norvegicus with 3 samples.

Results

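Glucose uptake, glycolysis and the fate of pyruvate were followed through the transcripts of 36 genes in rat osteoblast-like cells given polyphosphate. The genes were chosen by name for their place in the pathway, with earlier results of these data known. They are read by 49 probes and 116 spots on each array, of 26140 genes, 30367 probes and 58717 spots that are not controls.

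Expression was measured on 3 one-colour arrays, 1 for each group, from ROS17/2.8 cells, a line cloned from a rat bone tumour that keeps osteoblast traits. All groups were confluent cultures in 12-well plates, kept in the same mineralization medium with ascorbate phosphate and β-glycerophosphate. The high group received Poly(P), a linear chain of phosphate units, at 1 mg/ml for 24 h, the low group received 0.01 mg/ml for 24 h, and the control group received none, with no time given in the labels. The series asks how polyphosphates act on mineralization by osteoblasts. With 1 array per group there is no spread between cultures and no test, so every difference below describes these arrays and has no replicate check. Medium, cell line and array slide are shared by all groups, and the position on the slide and the group cannot be told apart.

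Cells take up glucose through transporters of the SLC2A family and trap it by phosphorylation with hexokinase. Glycolysis then splits it into pyruvate, which is reduced to lactate and exported by SLC16A carriers or oxidised in mitochondria through pyruvate dehydrogenase, an enzyme complex that the PDK kinases switch off. Osteoblasts are known for fast glycolysis with lactate release even where oxygen is present, and many of these genes are known targets of the hypoxia-inducible factors and of Myc.

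Values are the scanner's background-corrected spot signals. A scaled signal is a probe's signal after each array was scaled so that its 75th percentile over all non-control spots equalled that of the control array. A log2 ratio is the difference of log2 signals between arrays, averaged over the probes of a gene that were well above background on both. The error after ± is a spot error, the standard error derived from the scatter between repeat spots of a probe on an array. It covers the scatter of spots alone, and neither the labelling step nor the cultures enter it. A ratio given between 2 arrays is the first named over the other, and between the doses it is high over low. Scaled signals of different probes are not read as relative amounts of RNA, because probes differ in how well they bind. The sums over marker lists below add different probes, so a bright probe can make up most of a sum.

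The 75th percentile of the signal was 937 on the high array, 964 on the low array and 926 on the control array, and between 55.9% and 57.2% of probes were well above background. Of 12 osteoblast markers 11 were well above background on every array, among them Runx2, Sp7, Alpl, Ibsp and Col1a1, and Phex was not. Their summed scaled signal was 121976 on the high array, 130551 on the low array and 128103 on the control array. Most of that sum was Col1a2, with 81986, 88690 and 86781 on the same arrays. The median log2 ratio of the measured osteoblast markers for high against control was -0.13, with 9 of 11 below 0. Ptprc and Cd3e, which define leukocytes and T cells, were not well above background. The other 3 of 5 leukocyte markers were, and the sum over all 5 was 349 on the high array, 327 on the low array and 335 on the control array. Of 4 endothelial markers Pecam1 and Cdh5 were well above background, and the sum over all 4 was 240 on the high array, 197 on the low array and 208 on the control array. Skeletal muscle markers, 3 of 4 well above background, summed to 1872 on the high array, 1916 on the low array and 2012 on the control array over all 4. Most of that sum was Ckm, with 1749, 1787 and 1883 on the same arrays. Of 4 adipocyte markers 1 or 2 were well above background, with sums of 146 to 163, and of 4 epithelial markers only Krt8 was, with sums of 82.4 to 99.0. Fewer cells of a type and less RNA per cell cannot be told apart here. The part of any of these in the results was not tested.

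Promoter sequences are printed for the gene furthest above the control at the high dose, among those well above background on all arrays and held by the table, and for the gene closest to the control, at 3 stages of the pathway, so that a reader can set the measured contrast beside the DNA upstream of it. They come from RefSeq on the GRCr8 assembly and run from 250 bases before the gene's start to 50 bases after it, 300 bases in all. A table of such promoters held 33 of the 36 genes with 37 promoters, since Aldoa, Eno1 and Hk1 have several starts, and it did not list Pgk1, Slc2a3 and Slc2a4. Capitals mark ACGTG and GCGTG on either strand (on the other strand these read CACGT and CACGC), the letters at the core of the sites that hypoxia-inducible factors are known to bind. The stages shown are transport (Slc2a1 and Slc2a8), the glycolytic enzymes (Eno2 and Hk1, the latter with both listed starts) and the pyruvate step (Pdk1 and Pdha1).
Slc2a1, chr5:138002272-138002571, plus strand: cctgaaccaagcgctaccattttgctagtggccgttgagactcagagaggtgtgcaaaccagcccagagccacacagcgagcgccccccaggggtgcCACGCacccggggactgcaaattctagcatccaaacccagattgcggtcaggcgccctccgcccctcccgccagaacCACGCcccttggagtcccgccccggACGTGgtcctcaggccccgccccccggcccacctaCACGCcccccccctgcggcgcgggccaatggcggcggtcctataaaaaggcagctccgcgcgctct
Slc2a8, chr3:36682085-36682384, minus strand: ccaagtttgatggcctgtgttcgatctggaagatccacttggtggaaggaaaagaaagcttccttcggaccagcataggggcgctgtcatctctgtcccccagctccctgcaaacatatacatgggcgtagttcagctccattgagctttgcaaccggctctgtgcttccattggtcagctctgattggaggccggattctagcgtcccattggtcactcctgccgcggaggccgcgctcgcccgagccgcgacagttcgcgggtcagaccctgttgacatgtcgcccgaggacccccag
Eno2, chr4:159267171-159267470, minus strand: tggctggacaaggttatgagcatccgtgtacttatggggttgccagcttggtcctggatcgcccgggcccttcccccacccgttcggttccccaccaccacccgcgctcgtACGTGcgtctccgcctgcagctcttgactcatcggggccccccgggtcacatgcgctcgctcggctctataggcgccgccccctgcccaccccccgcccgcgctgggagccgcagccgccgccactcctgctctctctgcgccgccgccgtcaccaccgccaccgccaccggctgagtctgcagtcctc
Hk1, chr20:30842023-30842322, minus strand: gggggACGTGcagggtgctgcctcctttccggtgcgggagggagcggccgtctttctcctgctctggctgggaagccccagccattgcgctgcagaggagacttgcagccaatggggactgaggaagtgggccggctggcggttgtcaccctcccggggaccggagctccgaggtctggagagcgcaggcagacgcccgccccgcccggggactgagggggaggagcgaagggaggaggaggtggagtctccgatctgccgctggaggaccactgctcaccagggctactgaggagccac
Hk1, chr20:30874765-30875064, minus strand: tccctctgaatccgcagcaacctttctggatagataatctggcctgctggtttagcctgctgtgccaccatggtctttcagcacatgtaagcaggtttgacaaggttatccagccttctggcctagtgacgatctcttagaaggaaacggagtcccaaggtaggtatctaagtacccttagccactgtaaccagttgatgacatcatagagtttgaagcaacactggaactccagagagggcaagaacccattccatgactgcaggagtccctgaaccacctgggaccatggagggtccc
Pdk1, chr3:77113264-77113563, plus strand: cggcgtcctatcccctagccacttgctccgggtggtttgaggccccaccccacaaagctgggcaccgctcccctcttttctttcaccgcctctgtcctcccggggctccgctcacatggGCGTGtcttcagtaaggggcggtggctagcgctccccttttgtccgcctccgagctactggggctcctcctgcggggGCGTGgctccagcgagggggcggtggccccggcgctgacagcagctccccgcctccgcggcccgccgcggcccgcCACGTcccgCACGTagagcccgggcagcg
Pdha1, chrX:38508908-38509207, plus strand: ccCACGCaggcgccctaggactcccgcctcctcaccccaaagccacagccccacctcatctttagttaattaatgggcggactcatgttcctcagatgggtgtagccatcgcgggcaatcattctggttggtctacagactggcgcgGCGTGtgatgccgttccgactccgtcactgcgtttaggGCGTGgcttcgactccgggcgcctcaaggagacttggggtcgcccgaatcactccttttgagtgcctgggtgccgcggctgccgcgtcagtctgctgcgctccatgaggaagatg

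The Slc2a1 promoter held 4 of these cores and the Slc2a8 promoter held none. Eno2 and the first Hk1 start held 1 ACGTG each, and the other Hk1 start held neither core. Pdk1 held 4 cores and Pdha1 held 3, the latter all of the GCGTG kind. These pairs are examples, and core numbers did not follow the ratios throughout. Tpi1, with a log2 ratio of 0.30 for high against control, held none, while Pdk3 (-0.02) held 5 and Ldha (0.08) held 6. The genes past 1.2-fold upward in that comparison have 5 listed promoters, of which 3 held ACGTG and 4 held either core. A link between cores and ratios was not tested. Over all 37 promoters of these genes, 18 (48.6%) held ACGTG, against 19.3% of 33469 promoters of that length and 25.8% of the 9474 promoters of genes measured for high against control. The sets are unlike, since the 37 include promoters of genes with no ratio in that comparison, such as Hk3 and Pdk4. GCGTG stood in 14 of the 37 (37.8%), against 29.7% of all promoters and 49.6% of those of measured genes. Either core was present in 23 (62.2%), against 41.6% and 61.6%. The palindrome CACGTG, which holds ACGTG on both strands and is known as the core bound by Myc and its partners, was present in 4 (10.8%), against 6.42% and 9.36%. A match of letters is a description of the sequence and says nothing about binding in these cells.

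At the high dose most of the pathway read slightly above the control. By median log2 ratio, glucose uptake (0.56 over 3 genes) and upper glycolysis (0.25 over 7 genes) were furthest from it. Single genes did not follow the steps: Slc2a8 (-0.12) and Pfkm (-0.11) of these groups read below the control, and Eno2 of lower glycolysis read 0.35. The uptake median is the value of Slc2a1 itself and depends on which transporters were listed. Slc2a6 (-0.16 ± 0.16) and Slc2a12 (0.06 ± 0.14), transporters of the same family counted below among other isoforms, are not in it. The steps also differ in signal, on which the scatter of ratios depends. Slc2a1, the main basal glucose transporter, was 1.48-fold higher, and Slc2a3, Eno2, Aldoc, Tpi1 and Pfkp were 1.2-fold to 1.54-fold higher. At the low dose the same 6 genes read 0.13 to 0.45 above the control on the log2 scale. No gene of the pathway was 2-fold apart between any arrays on which it was well above background, where the background at 2-fold was 0.0621% upward and 0.0552% downward between high and control, 0.0684% and 0.0479% between low and control, and 0.0483% and 0.0276% between the doses.

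Of the 36 genes, 27 were well above background on both the high and the control array and had a log2 ratio, and the other 9 are given below by their signals. Their median was 0.12, a fold of 1.09, against -0.01 over all 14503 genes measured in that comparison. The ratio was above 0 for 22 of the 27 genes, while 47.9% of all genes were above 0. A difference of at least 1.2-fold upward was seen for 6 genes, where the background was 7.18%, and no gene was 1.2-fold lower, where the background was 7.87%. More than 2 spot errors above 0 lay 14 genes (background 10.7%), and Pfkm alone lay as far below (background 12.8%). The root mean square spot error was 0.09 over these genes and 0.14 over all genes, so a smaller difference lies past 2 spot errors for them.

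For low against control, 28 genes had a ratio, with a median of 0.09 against 0.00 over all 14629 genes measured. Above 0 lay 24 of the 28, with a background of 50.4%. Slc2a3 and Aldoc were at least 1.2-fold higher (background 3.99%) and Pfkfb3 was 1.2-fold lower (background 5.08%). The Pfkfb3 value rests on 1 spot and was not called under 6 alternatives, which were 4 other scalings, normexp and the stricter spot filter, and it read 0.11 without the filter on dim probes. Normexp left neither Slc2a3 nor Aldoc past 1.2-fold. Past 2 spot errors upward lay 11 genes (background 4.16%), and none lay as far below (background 4.4%). Both comparisons use the same control array, so a deviation of that array moves both ratios the same way. A like reading at both doses is therefore no independent check. Centring the arrays on their 8 spike-in probes instead of the 75th percentile raised every ratio by 0.15 for high against control and by 0.16 for low against control, for these genes and all others alike, so that the distance of the pathway's median from that of all genes stayed at 0.13 and 0.09. On that scale all 27 genes of the high comparison lay above 0, as did 81.6% of all genes.

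**Figure D1:**
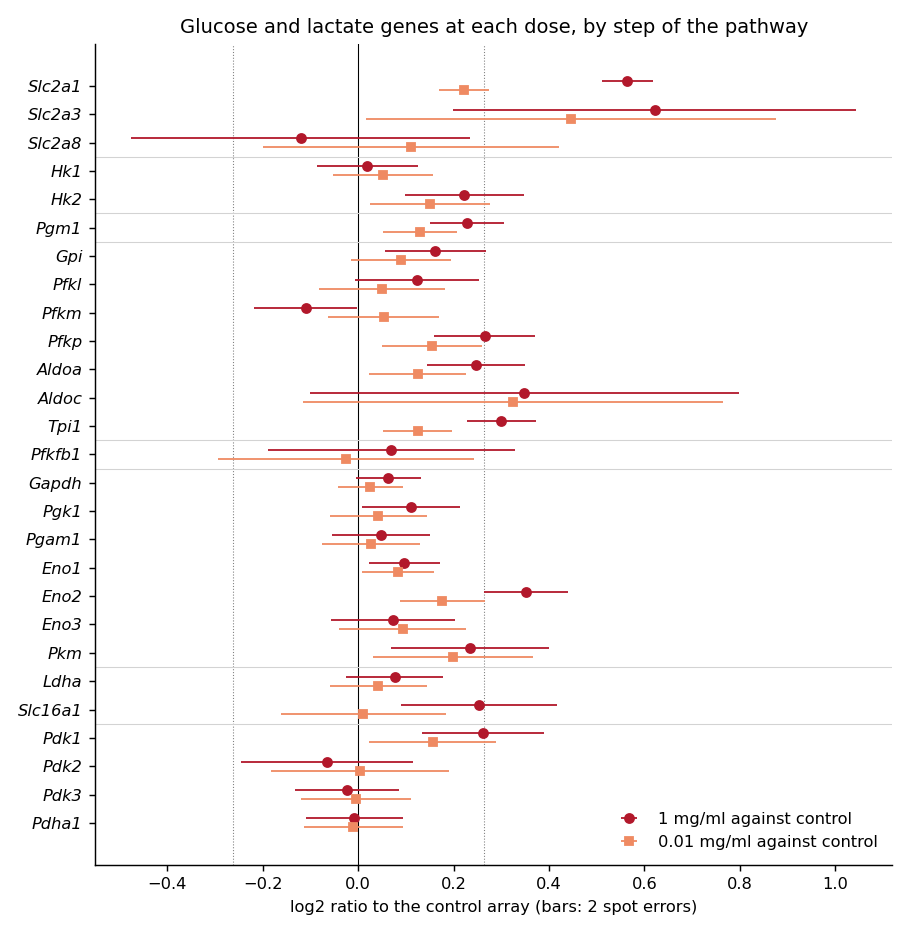
Log2 ratio to the control array for the 27 genes measured on the high and control arrays, in pathway order from transporters (top) to the pyruvate gate (bottom); circles are 1 mg/ml, squares 0.01 mg/ml, bars reach 2 spot errors to each side, and dotted lines mark 1.2-fold. At 1 mg/ml 22 genes lie right of 0, with Slc2a1 at 0.56 and Slc2a3 at 0.62, and Slc2a8, Pfkm, Pdk2, Pdk3 and Pdha1 lie left of it.

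Slc2a1 encodes GLUT1, the transporter that brings glucose into most proliferating cells. Its probe, which the files place at chr5:139718779-139718838 on the plus strand of rn4, is printed 10 times on each array, and 8 spots per array carried no outlier flag. Its scaled signal was 14222 on the high array, 11217 on the low array and 9620 on the control array. Single spots ran from 13661 to 14597 on the high array, from 10989 to 11500 on the low array and from 9349 to 9911 on the control array, so no spot of a group overlapped those of another. The log2 ratio was 0.56 ± 0.03 between high and control, 0.22 ± 0.03 between low and control and 0.34 ± 0.02 between the doses. Among the 27 genes it had the largest distance from 0 in spot errors in each of these comparisons, and no other gene of the pathway read at least 1.2-fold higher on the high than on the low array.

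Slc2a3 encodes GLUT3, a high-affinity glucose transporter best known from neurons. Its scaled signal was 74.6 on the high array, 66.0 on the low array and 48.5 on the control array, from 2 spots each. Both treated arrays were above the control on every spot, but the spots of the high array (63.4 and 87.8) overlapped those of the low array (63.3 and 68.8). Its log2 ratio was 0.62 ± 0.21 for high against control and 0.45 ± 0.21 for low against control, and 0.18 ± 0.20 between the doses. With another background correction (normexp) the ratios were 0.30 and 0.14, so the size of the difference at this low signal depended on the correction.

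Slc2a8 encodes GLUT8, a transporter held mostly inside the cell. Its scaled signal was 76.3, 89.6 and 83.0 on the high, low and control arrays, and the log2 ratio was -0.12 ± 0.18 for high against control (0.03 with spike-in centring) and 0.11 ± 0.16 for low against control, both within the spot error. Slc2a4, the insulin-responsive transporter GLUT4 of muscle and fat, was not well above background on any array, with signals of 17.2, 13.6 and 14.9 over 10 spots.

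**Figure D2:**
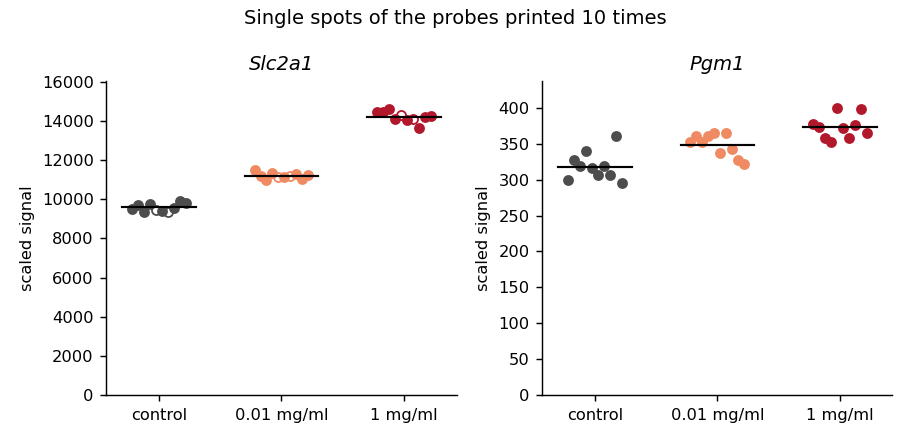
Scaled signal of each of the 10 spots of the Slc2a1 probe (left) and the Pgm1 probe (right) on the control, 0.01 mg/ml and 1 mg/ml arrays; filled points enter the value, open points carry an outlier flag, and bars are the probe's value. The Slc2a1 spots form 3 separate bands around 9620, 11217 and 14222, while the Pgm1 spots of neighbouring arrays overlap.

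The hexokinases phosphorylate glucose as it enters. Hk2, the inducible form, had scaled signals of 1642, 1563 and 1408 on the high, low and control arrays, and all its spots were higher on the treated arrays than on the control. Its log2 ratio was 0.22 ± 0.06 at 1 mg/ml and 0.15 ± 0.06 at 0.01 mg/ml, with 0.07 ± 0.06 between the doses. Hk1, the form found in most tissues, had scaled signals of 8229, 8420 and 8121, a ratio of 0.019 ± 0.05 at 1 mg/ml and 0.05 ± 0.05 at 0.01 mg/ml. Hk3, known mainly from blood cells, was not well above background, with signals of 17.1, 16.9 and 19.8 on the high, low and control arrays.

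Pgm1, which interconverts the glucose phosphates of glycogen and glycolysis, was read by 10 spots on each array. Its spots ran from 352 to 400 on the high array, from 323 to 366 on the low array and from 295 to 361 on the control array. The arrays overlapped at their edges, and the medians over spots were 373, 352 and 317. Its log2 ratio was 0.23 ± 0.04 between high and control, 0.13 ± 0.04 between low and control and 0.10 ± 0.04 between the doses.

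The 7 measured genes of upper glycolysis, from glucose phosphate isomerase to triose phosphate isomerase, had a median log2 ratio of 0.25 for high against control and 0.12 for low against control. Gpi, the isomerase that follows hexokinase, had scaled signals of 15777, 15002 and 14103, with ratios of 0.16 ± 0.05 and 0.09 ± 0.05 at the high and low doses. Tpi1, which interconverts the triose phosphates, was read by 2 probes. The first gave scaled signals of 32629, 28916 and 26464 on the high, low and control arrays, and the other gave 60801, 53825 and 49443. Both probes gave a log2 ratio of 0.30 ± 0.05 for high against control, and the gene's ratio between the doses was 0.18 ± 0.04. The low array lay between the other two on both probes.

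Phosphofructokinase, the committed step of glycolysis, is built from subunits named after liver (Pfkl), muscle (Pfkm) and platelets (Pfkp), whose log2 ratios at the high dose ran from -0.11 to 0.27. Pfkp had scaled signals of 17260, 15995 and 14361 on the high, low and control arrays and ratios of 0.27 ± 0.05 and 0.16 ± 0.05, and its spots did not overlap between any arrays. At the high dose it lay just past 1.2-fold, which is 0.26 on the log2 scale. Pfkm had scaled signals of 3253, 3643 and 3511, and its ratio was -0.11 ± 0.05 between high and control, 0.05 ± 0.06 between low and control and -0.16 ± 0.06 between the doses. Its spots on the high array (3105 and 3407) lay below those on the low array (3605 and 3681) and overlapped those on the control array (3398 and 3628). With spike-in centring the Pfkm ratio for high against control was 0.04, so its sign depended on the scaling while its distance to Pfkp did not. Pfkl had a ratio of 0.12 ± 0.07 at 1 mg/ml and 0.05 ± 0.07 at 0.01 mg/ml, and its probes gave opposite signs at the low dose (-0.04 and 0.14).

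The aldolases split the phosphorylated hexose. Aldoa, the form of muscle and most other tissues, had scaled signals of 21261, 19534 and 17917 on the high, low and control arrays, with ratios of 0.25 ± 0.05 and 0.12 ± 0.05 to the control and 0.12 ± 0.05 between the doses. All its spots were separate between arrays. Aldoc, the brain form, rested on a single spot with signals of 106.5, 104.8 and 83.7, and its ratios of 0.35 ± 0.22 and 0.32 ± 0.22 were within 2 spot errors of 0. The other Aldoc probe was not well above background, with signals of 4.87, 5.49 and 9.86, highest on the control array. Including it turned the Aldoc ratio to -0.33 at 1 mg/ml and -0.26 at 0.01 mg/ml.

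The PFKFB enzymes set the level of a sugar bisphosphate that activates phosphofructokinase, and 3 of their 4 genes were near the limit of detection. Pfkfb1, known from liver and muscle, had ratios of 0.07 ± 0.13 and -0.03 ± 0.13. Pfkfb2, known from heart, was not well above background on any array, and both its probes read highest on the high array (15.6 and 16.7) and between 7.99 and 13.7 on the others. Pfkfb3, the form known from proliferating and hypoxic cells, was read by 2 probes, neither of them well above background on all arrays. A probe with a single spot had signals of 21.3, 31.5 and 37.9 on the high, low and control arrays, and the other had 11.1, 18.9 and 13.5. The ratio of low against control, -0.27 ± 0.36, came from the former and that of high against low, -0.77 ± 0.26, from the latter, and there was no ratio for high against control. Spots of the latter probe read 4.97 and 24.8 on the high array and 13.9 and 25.8 on the low array, so they overlapped. On each of these arrays 1 of 2 spots was well above background. The spot error is pooled from other probes and does not hold this probe's own scatter. Both probes read lowest on the high array, and they disagreed on the order of the other arrays. With normexp the ratio of high against low was -0.14. Pfkfb4 was well above background on the low array only, in 1 of 2 spots, with signals of 18.3, 27.5 and 13.8. The low array was nominally at least 1.99-fold above the control there, which is the observed ratio of the signals and no true bound. Both Pfkfb3 and Pfkfb4 are known targets of hypoxia-inducible factors, and neither had a measurable ratio of high against control.

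In lower glycolysis 7 of 8 genes were measured, with a median log2 ratio of 0.10 for high against control and 0.08 for low against control, and each of the 7 was above 0 in both, except that Gapdh read -0.0025 at the low dose with quantile scaling and Pkm read below 0 with its brighter probe alone. Eno2, the enolase known from neurons, had the highest ratio among them for high against control. Its brighter probe had scaled signals of 6318, 5438 and 4808 on the high, low and control arrays, and its dimmer probe had 930, 847 and 750. The gene's log2 ratio was 0.35 ± 0.04 between high and control, 0.18 ± 0.04 between low and control and 0.18 ± 0.04 between the doses, and the probes gave 0.39 and 0.31 at the high dose. Spots of the high array were above those of the control on both probes.

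Eno1, the enolase of most tissues, had a ratio of 0.10 ± 0.04 at 1 mg/ml and 0.08 ± 0.04 at 0.01 mg/ml over 3 probes, and Eno3, the muscle enolase, had 0.07 ± 0.07 and 0.09 ± 0.07. Pgk1, the first enzyme of glycolysis that yields ATP, had scaled signals of 270611, 258026 and 250557 on the high, low and control arrays and a ratio of 0.11 ± 0.05 at 1 mg/ml and 0.04 ± 0.05 at 0.01 mg/ml. Gapdh, often used as a reference gene, had ratios of 0.06 ± 0.03 and 0.03 ± 0.03 over 3 probes. Pgam1, the mutase between them and the enolases, had 0.05 ± 0.05 and 0.03 ± 0.05, and its muscle counterpart Pgam2 was not well above background, with signals of 5.34 to 7.14. The files place the Pgam1 probe and one Eno1 probe on chromosome 10 of rn4, whereas RefSeq places the Pgam1 gene on chromosome 1 of GRCr8. Near-identical copies of several of these genes exist in the rat genome, and whether a probe also reads them was not tested.

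Pkm, the pyruvate kinase that closes glycolysis, is known to be spliced into forms that differ by a single exon, and its probes disagreed. Their sequences are shown because the gene's value depends on which is used. Both lie on the plus strand of chromosome 8 of rn4, and which exon each reads was not annotated here.
Pkm, dimmer probe, chr8:63504373-63504432: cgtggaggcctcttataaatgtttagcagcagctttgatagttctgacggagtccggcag
Pkm, brighter probe, chr8:63507002-63507061: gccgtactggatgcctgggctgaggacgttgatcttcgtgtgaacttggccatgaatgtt

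The dimmer Pkm probe, with 2 spots, had scaled signals of 138.5, 133.3 and 99.8 on the high, low and control arrays and log2 ratios of 0.47 ± 0.15 and 0.42 ± 0.15. The brighter probe, a single spot, had 16498, 16311 and 16549, with ratios of -0.0045 ± 0.07 and -0.02 ± 0.07. The mean of both gave the gene 0.23 ± 0.08 for high against control, a value that neither probe had. That mean is what the counts of genes use for Pkm, while the brighter probe alone was within the spot error of 0 at both doses. The 3 Gapdh probes gave 0.019 to 0.09 at 1 mg/ml and the 3 Eno1 probes 0.06 to 0.13, a much narrower range, as the plot of separate probes shows.

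**Figure D3:**
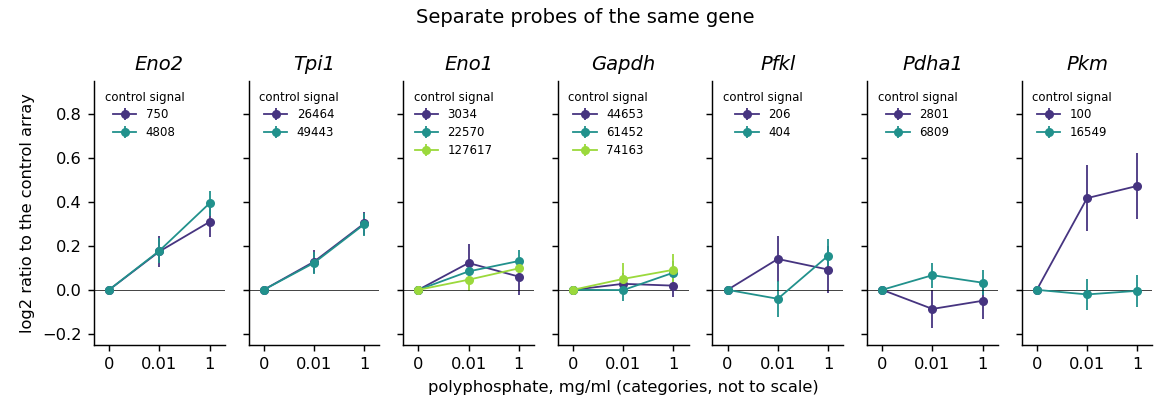
Log2 ratio to the control array for each probe well above background of 7 genes read by several probes, against the polyphosphate concentration as 3 categories; bars are 1 spot error and the legend gives the probe's scaled signal on the control array. The Eno2 and Tpi1 probes run together to 0.30 to 0.39, while the Pkm probes end at 0.47 and -0.0045.

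Lactate formation and export gave few measurable genes. Ldha, the subunit that favours lactate formation, had scaled signals of 169844, 165889 and 161119 on the high, low and control arrays and ratios of 0.08 ± 0.05 and 0.04 ± 0.05. Ldhb, which favours the return to pyruvate, was not well above background, with signals of 5.20, 4.58 and 8.36. Slc16a1 encodes MCT1, a proton-coupled carrier of lactate and pyruvate. Its scaled signals were 444 on the high array, 376 on the low array and 373 on the control array. The high array stood above both others, whose spots overlapped, and the ratios were 0.25 ± 0.08 between high and control, 0.01 ± 0.09 between low and control and 0.24 ± 0.08 between the doses. Slc16a3, encoding the lactate exporter MCT4 of glycolytic cells and a known hypoxia-inducible gene, was not well above background, with signals of 9.43, 8.75 and 8.15.

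At the pyruvate gate Pdk1, the pyruvate dehydrogenase kinase that hypoxia-inducible factors are known to induce, lay further above the control than the other kinases measured. Its scaled signals were 1295, 1204 and 1081 on the high, low and control arrays, with no overlap of spots between the arrays. Its log2 ratio was 0.26 ± 0.06 for high against control, just under 1.2-fold, and 0.16 ± 0.07 for low against control. Pdk2 had ratios of -0.07 ± 0.09 and 0.0043 ± 0.09, and Pdk3 had -0.02 ± 0.05 and -0.0042 ± 0.06. Pdk4, the kinase of fasting and fat use, was not well above background, with signals of 6.92 to 10.4. Pdha1, the catalytic subunit of pyruvate dehydrogenase that these kinases phosphorylate, had -0.0086 ± 0.05 and -0.01 ± 0.05. With spike-in centring Pdk2, Pdk3 and Pdha1 read 0.09, 0.13 and 0.15 at the high dose, and Pdk1 read 0.42.

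Because the scatter of ratios depends on the signal, the genes were also set beside others of like signal. Between scaled signals of 1000 and 50000 lay 4966 genes with an SD of 0.13 for high against control, of which 2.07% were at least 1.2-fold higher. The 15 pathway genes in that range had a median of 0.22, and Slc2a1, Pfkp, Tpi1 and Eno2 were 1.2-fold higher. Pkm enters there as the mean of its probes, which disagreed. Above a signal of 50000 the SD over 500 genes was 0.07 and none was 1.2-fold higher, and Gapdh, Pgk1, Pgam1 and Ldha had ratios of 0.05 to 0.11 there. Below 1000 the SD over 9037 genes was 0.24 and 10.4% were 1.2-fold higher, and the 8 pathway genes had a median of 0.18, with Slc2a3 and Aldoc past 1.2-fold.

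**Figure D4:**
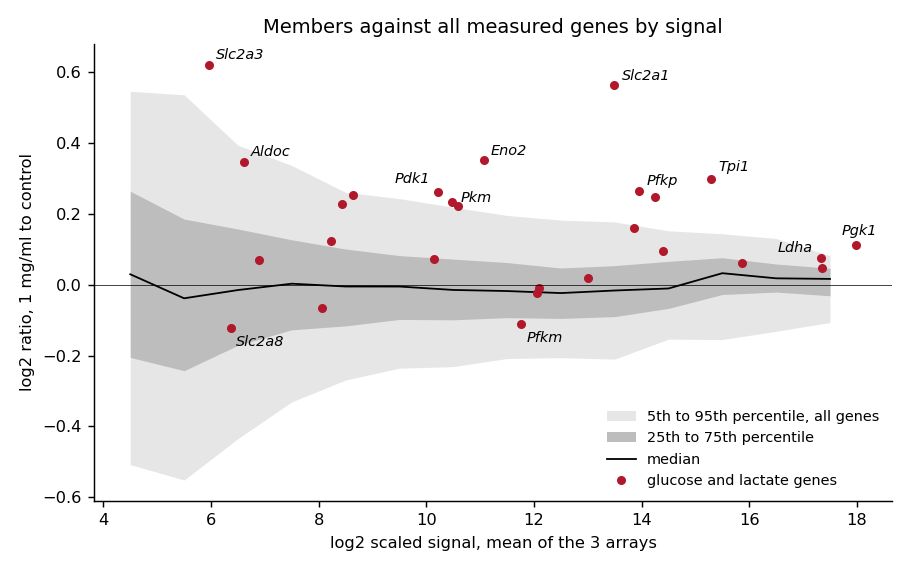
Log2 ratio of 1 mg/ml to control against the log2 scaled signal averaged over the 3 arrays, for the 27 pathway genes (points) over the quantiles of all measured genes in bins of signal (grey bands and line). Slc2a1, Slc2a3, Hk2, Pfkp, Aldoa, Tpi1, Eno2, Pkm and Pdk1 lie above the light band at their signal, none of the 27 lies under it, and Pgk1 lies beyond its right end. The Pkm point is the mean of 2 probes of unlike signal, of which the brighter read -0.0045.

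The order of the arrays was read for the 27 genes with a ratio in every comparison. The high array was the highest for 20 of them, where 35.6% of all genes had that order, and the control array was the lowest for 21, where the background was 32.1%. Slc2a8, Pfkm, Pdk2 and Pdk3 were lowest on the high array, and Pfkfb1 and Pdha1 on the low array. The place of the control array in these orders depends on the scaling. With spike-in centring 81.6% of all genes lay above 0 for high against control and 88.7% for low against control. The orders were not counted on that scale, so the background of 32.1% applies to the percentile scaling only. For high against low, 28 genes had a median of 0.05 against -0.01 over all genes, with 21 above 0 (background 47%). Slc2a1 alone was at least 1.2-fold higher (background 6.98%), and Pfkfb3 alone was 1.2-fold lower (background 6.12%). More than 2 spot errors apart were 7 genes upward (background 9.76%), namely Slc2a1, Pgm1, Pfkp, Aldoa, Tpi1, Eno2 and Slc16a1, and Pfkm and Pfkfb3 downward (background 10.8%). The Pfkfb3 spots overlapped between these arrays, and its spot error is pooled from other probes.

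Repeat spots were also compared directly, with no error model. Of the pathway's probes, 32 from 26 genes had several spots well above background. On 23 of them (71.9%) every spot of the high array was above every spot of the control array, where the background was 23.8%, and on none was every spot lower, where it was 26.9%. For low against control, 19 probes (59.4%) had every spot higher (background 17.5%), and a Pfkl probe had every spot lower (background 16.9%). Between the doses, 16 probes (50%) had every spot higher on the high array (background 22.1%). Lower throughout were 2 probes (background 25.3%), that of Pfkm and the brighter probe of Pdha1. The dimmer Pdha1 probe, a single spot, read 0.04 ± 0.08 between the doses, and the ratio of the gene was 0.0015. Spots of a probe share the array and the RNA, so this too describes spot measurement.

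Neighbouring pathways were counted in the same way for high against control. Of 20 glycogen genes 14 were measured, with a median of 0.08 and 3 at least 1.2-fold higher, where the share over all genes was 7.18% (7.87% lower). These were Gbe1, the branching enzyme, at 0.60 ± 0.12 with signals of 201.7, 131.4 and 133.4 on the high, low and control arrays, Ppp1r3c, which directs a phosphatase to glycogen, at 0.41 ± 0.06, and Gys1, the glycogen synthase of muscle and most tissues, at 0.38 ± 0.11. At the low dose Gbe1 read -0.02 ± 0.14, while Ppp1r3c and Gys1 read 0.24 ± 0.06 and 0.22 ± 0.11. Of 12 genes of the pentose phosphate pathway 9 were measured, with a median of -0.02, none 1.2-fold higher and 1 lower, against the same 7.18% and 7.87%. Tigar, which diverts sugar to that pathway, was at -0.27 ± 0.13, Rpe, an epimerase, at 0.13 ± 0.09 and Rpia, an isomerase, at -0.11 ± 0.06. Of 10 genes of gluconeogenesis 6 were measured, with a median of -0.07, none 1.2-fold higher and 1 lower, against those shares. Gpd1, a glycerol phosphate dehydrogenase, was at -0.55 ± 0.25 at signals of 19.95 to 29.8, Slc37a4, the glucose phosphate translocase, at 0.16 ± 0.06 and Fbp2, a fructose bisphosphatase, at -0.08 ± 0.06.

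Among 11 genes for the entry of pyruvate into mitochondria 10 were measured, with a median of -0.01 and none past 1.2-fold either way. Mpc1, a subunit of the mitochondrial pyruvate carrier, was at 0.21 ± 0.05, Pdhb, a subunit of pyruvate dehydrogenase, at -0.14 ± 0.06 and Pdpr, its phosphatase regulator, at -0.13 ± 0.25. Of 26 other isoforms of the families above 10 were measured, with a median of 0.02 and 1 past 1.2-fold in each direction, close to the 7.18% and 7.87% over all genes. Slc16a8 was at -0.36 ± 0.25, Ldhd at 0.28 ± 0.25 and Bpgm, which makes a phosphoglycerate that lowers the oxygen affinity of haemoglobin, at -0.24 ± 0.07. Of 17 regulators of glycolysis and the hypoxia response 9 were measured, with a median of 0.04, 3 at least 1.2-fold higher and none lower, where 7.18% and 7.87% of all genes were. Myc was at 0.43 ± 0.02 for high against control and 0.04 ± 0.03 for low against control, with signals of 5668, 4319 and 4193. Egln1, an oxygen-sensing hydroxylase, was at 0.28 ± 0.07 and 0.12 ± 0.08, and Hif1a, the oxygen-regulated subunit of the hypoxia-inducible factor, at 0.28 ± 0.16 and -0.16 ± 0.18. Myc had its high array apart from the others, as Slc16a1 and Gbe1 did, while Slc2a1 and Eno2 had the low array between them. These genes are examples: the share of all genes with either pattern was not counted, and a link to Myc was not tested. At the low dose the medians of these 6 lists ran from -0.0042 (glycogen) to 0.04. For the genes read below 0 here, spike-in centring adds 0.15 and turns the medians of the pentose phosphate, gluconeogenesis and pyruvate entry lists above 0.

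**Figure D5:**
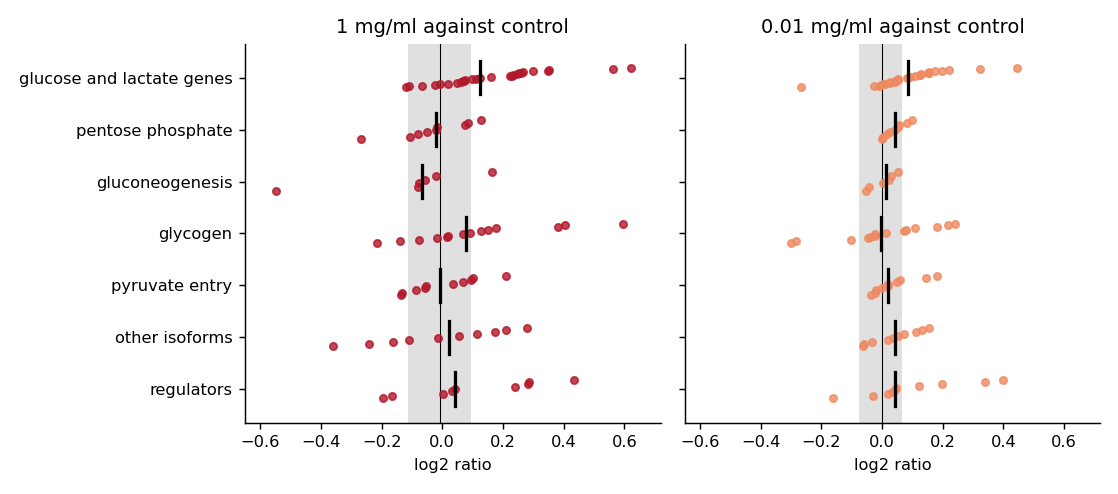
Log2 ratio to the control array for each measured gene of the glucose and lactate pathway and of 6 neighbouring lists, at 1 mg/ml (left) and 0.01 mg/ml (right); thick bars are list medians, the grey band spans the middle quartiles of all genes and the thin line their median. The pathway's median is 0.12 at 1 mg/ml and 0.09 at 0.01 mg/ml, and those of the neighbouring lists run from -0.07 to 0.08 at 1 mg/ml.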

How the data were processed

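Total RNA of 3 cultures was labelled with Cy3 and hybridised to 3 arrays, 1 per group, grouped by the treatment labels. Each spot's intensity was deposited by the authors as scanner output, extracted with Feature Extraction 10.7.3.1 (protocol GE1_107_Sep09, design 028279, build rn4) per the file headers, already background-subtracted and not scaled between arrays. The authors also deposited a table of ratio values, found to be the processed signal over a constant per array (823, 849 and 823), with column medians of 0.0734, 0.0731 and 0.0737. Direction and centring between genes are as in the scanner signal.

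From the intensities, log2 signals minus each array's 75th percentile were computed (python 3.11.15, numpy 2.4.6, pandas 2.3.3). Outlier spots were left out, no spot was saturated, and a probe needed 50% of its spots well above background. Spot errors were pooled in 20 bins of signal. The number of arrays limits the precision, and no p-value was computed. Symbols were updated through RefSeq accessions for 18438 of 30367 probes. Alternatives were spike-in centring, quantile scaling, the deposited ratio table's constants, normexp with an offset of 50 (limma 3.58.1, R 4.3.3), no or a stricter filter, outlier spots kept, the brightest probe and symbols as in the files. The scripts were tested on simulated data. Members, lists and tests were chosen with earlier results of these data known. All 36 members are named, and from each neighbouring list the 3 genes furthest from 0 for high against control.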

Additional observations from a re-analysis of the deposited data

How the results depend on the processing

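No paired analysis was possible because each group has 1 array. With arrays centred on the spike-in probes, all ratios to the control shifted by 0.15 (high) and 0.16 (low). The pathway's medians became 0.28 and 0.25, with 15 and 12 genes past 1.2-fold upward, and 0 genes past it downward at the low dose. Over all genes the share of such calls that were higher went from 47.7% to 89.7% and from 44.0% to 89.8%. Over all genes, those 1.2-fold higher at the high dose went from 1042 to 3249 (339 with normexp, 3221 without the filter) and those lower from 1141 to 373 (405 and 3403). The low dose counts of 583 and 743 became 2296 and 261 with spike-in centring, 89 and 182 with normexp and 2366 and 3372 without the filter, and the dose comparison's 1011 and 887 became 331 and 197 with normexp and 3398 and 2537 without the filter. With normexp 32.8% of the low dose calls were higher.

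Of the 6 pathway genes called higher at the high dose, all 6 were called under every alternative except normexp and no filter on dim probes, which lost Aldoc. At the low dose normexp left 0 genes higher. The single gene lower at the low dose, Pfkfb3, was not called (0 genes) with spike-in centring, quantile scaling, the deposited table's constants, normexp, the stricter spot filter or centring by signal level, the last chosen after seeing the data. Between doses 0 genes were lower with normexp and with the stricter filter. Without the filter, 4 genes were lower at the high dose, 2 at the low dose, and 4 higher and 2 lower between doses. Ratios past 1.2-fold that changed sign were Aldoc without the filter (-0.33 high, -0.26 low), Pfkfb3 at the low dose without the filter (0.11) and Hif1an between doses with normexp (0.047, against -0.36), and the cause was not tested. Smaller ratios also changed sign. With the brightest probe Pkm read -0.0045 and -0.02, Pfkl -0.04 at the low dose and Pfkfb1 -0.019 at the high dose. With spike-in centring all 5 genes below 0 at the high dose turned (Pfkm 0.04, Slc2a8 0.03, Pdk2 0.09, Pdk3 0.13, Pdha1 0.15). The other sign changes were among ratios within 0.10 of 0, in Hk1, Gapdh, Aldoc, Pfkfb1, Pdk3 and Pdha1. All 3 comparisons rest on 1 array per group and share arrays.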
